A study of Rattus norvegicus with 6 samples.

Results

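The genes described here build, fold and check proteins in the endoplasmic reticulum (ER), and they include the sensors and effectors of the unfolded protein response. They were chosen by name: 50 genes in 5 classes, of which 48 were measured among 14217 genes in all, each through 1 probe set, the one whose mean over the 6 arrays was highest. Ern1, which encodes the sensor IRE1, and Derl3, a derlin gene, had no probe set paired with them alone and were not analysed here. The classes were sensors and regulators (6 measured genes), ER chaperones (13), disulfide enzymes (7), ER-associated degradation or ERAD (12), and translocon and membrane insertion (10).

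The samples were NRK-52E cells, a long-established rat line from normal renal tubular epithelium. AMPKα2 is one of the catalytic subunits of AMP-activated protein kinase, which senses cellular energy. For 3 arrays, called hairpin arrays here, the cells had been given a lentivirus encoding a short hairpin RNA (shRNA) against AMPKα2, and for 3 control arrays a control lentivirus. Every culture, control cultures included, had received recombinant TGF-β1 at 10 ng/mL for 24 h, a cytokine that pushes tubule cells from an epithelial to a mesenchymal state. Within a group, the labels give the 3 arrays as biological replicates, and the hairpin's sequence and the number of hairpins or clones are not given in the sources used here. Values are the deposited log2 expression values, and fold changes are differences on that scale, AMPKα2 shRNA minus control.

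Secreted and membrane proteins enter the ER through the Sec61 channel, are bound by chaperones led by BiP, and gain disulfide bonds from protein disulfide isomerases. Those that fail to fold are passed back to the cytosol for degradation. When unfolded proteins accumulate, the membrane sensors IRE1, PERK and ATF6 lower translation and raise the transcription of chaperone and degradation genes. Cells that secrete much matrix depend on this machinery, since collagens and other matrix proteins fold in the ER.

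The arrays of the 2 groups differed in ways that reach most genes, and this bears on every value that follows. Over the 31042 probe sets that are not array controls, the SD of the values was 1.76 to 1.82 on the hairpin arrays, against 2.17 to 2.19 on the control arrays. Genes at high control levels were mostly lower with the hairpin and genes at low control levels mostly higher: the median change of all genes was -0.90 at control levels of 9 to 10 and 0.79 at 4 to 5. As 44 of the 48 genes had control levels of 7 or more, the change of each of the 48 is also given after quantile normalization and cyclic loess, which both make the arrays' distributions alike, and median centring served as a further scaling. The first pair are called quantile scaling and loess in what follows. Prkaa2, the gene of AMPKα2, had 6.64, 6.76 and 6.49 on the hairpin arrays, against 6.83, 6.79 and 6.89 on the control arrays. Its change of -0.21 (SE 0.09, limma, adjusted p = 0.0552) did not pass, so the groups are named by their labels. The change of Prkaa2 was -0.05 after quantile scaling and -0.15 after loess. Of 8 markers of kidney epithelium, 6 were higher and 1, the keratin gene Krt8, lower with the hairpin as deposited, and 2 were higher and 1 lower after loess. Krt8 stood at 12.24 on the hairpin arrays, against 12.49 on the control arrays, while Epcam, an epithelial adhesion gene, lay near the bottom of the range at 3.47 and 2.97 in the same order. Of 7 markers of the proximal tubule, 6 were higher and 0 lower as deposited, and 5 and 0 after loess. The mean level of the epithelial markers was 6.01 to 6.07 on the hairpin arrays, against 5.53 to 5.63 on the control arrays, and that of the proximal tubule markers 6.48 to 6.57 on the hairpin arrays, against 5.70 to 5.81 on the control arrays. Of 17 measured markers of fibroblasts, endothelium, macrophages and podocytes, 14 were higher and 2 lower with the hairpin as deposited, and 10 were higher and 1 lower after loess. Their mean level was 5.65 to 5.81 on the hairpin arrays, against 5.13 to 5.19 on the control arrays. Of all genes, 43.6% were higher and 41.5% lower as deposited, and 40.2% and 31.5% after loess. At control levels of 5 to 6, where these marker means lay, the median change of all genes was 0.81 as deposited and 0.37 after loess. The part of these markers in the results was not tested. In bulk RNA, fewer cells that express a gene and less of its RNA per cell cannot be told apart.

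Across the 48 genes there was no common direction. With limma, which fits each gene and shares the estimate of spread over all genes, 38 of the 48 (79.2%) passed an adjusted p of 0.05, against 85.1% of all genes tested. With the hairpin 15 were higher (31.2%, against 43.6% of all genes) and 23 lower (47.9%, against 41.5%). The median change was -0.10 for the 48 genes and 0.05 for all genes. After quantile scaling 27 were higher (43.8% of all genes) and 12 lower (28.9%), with a median of 0.29 against 0.16 for all genes. After loess 28 were higher (40.2% of all genes) and 12 lower (31.5%), with a median of 0.33 against 0.09. After median centring 9 were higher (35% of all genes) and 29 lower (48.2%), with a median of -0.32 against -0.17. The balance of rises and falls thus moved with the scaling.

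**Figure D1:**
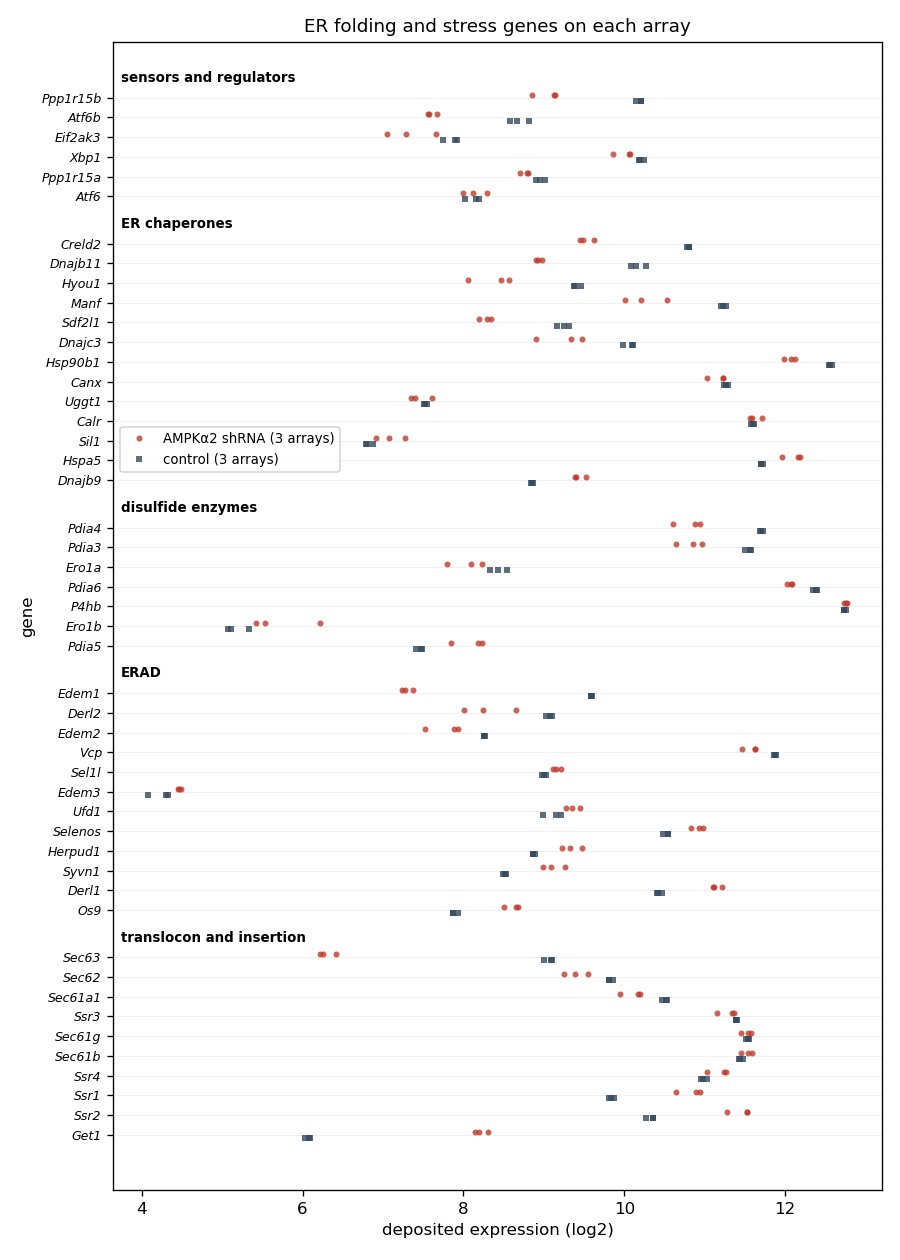
Deposited log2 expression (horizontal axis) of each of the 48 genes (vertical axis) on the 3 hairpin arrays (red circles) and the 3 control arrays (dark squares), grouped by class and sorted by change within a class. Sec63, Edem1 and Get1 have the widest gaps between the groups, and P4hb and Calr have groups that overlap.

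In all 4 scalings 19 genes passed in 1 direction. Median centring moves the change of every gene by the same amount, so it is no separate check on the arrays' differing spread. Those higher were Dnajb9, Pdia5, Syvn1, Herpud1, Derl1, Os9, Ssr1, Ssr2 and Get1, which makes 9 of 48 (18.8%), against 25.5% of all genes. Those lower were Atf6b, Ppp1r15b, Dnajb11, Hyou1, Manf, Creld2, Pdia3, Pdia4, Edem1 and Sec63, which makes 10 of 48 (20.8%), against 26.4% of all genes. These shares lie below those of all genes. Each scaling used the same probe set of a gene. Of the genes that were higher, Derl1, Os9 and Ssr1 had another probe set that passed as lower, at -0.43, -0.34 and -0.44. None of the genes that were lower had another probe set that passed as higher. At least a 2-fold change as deposited was seen in 2 genes that were higher (Get1 and Ssr2, 11.6% of all genes) and in 7 that were lower (Sec63, Edem1, Creld2, Dnajb11, Ppp1r15b, Atf6b and Hyou1, 18.6% of all genes). The groups did not overlap in 42 of the 48 genes (87.5%), against 87.1% of all genes.

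**Figure D2:**
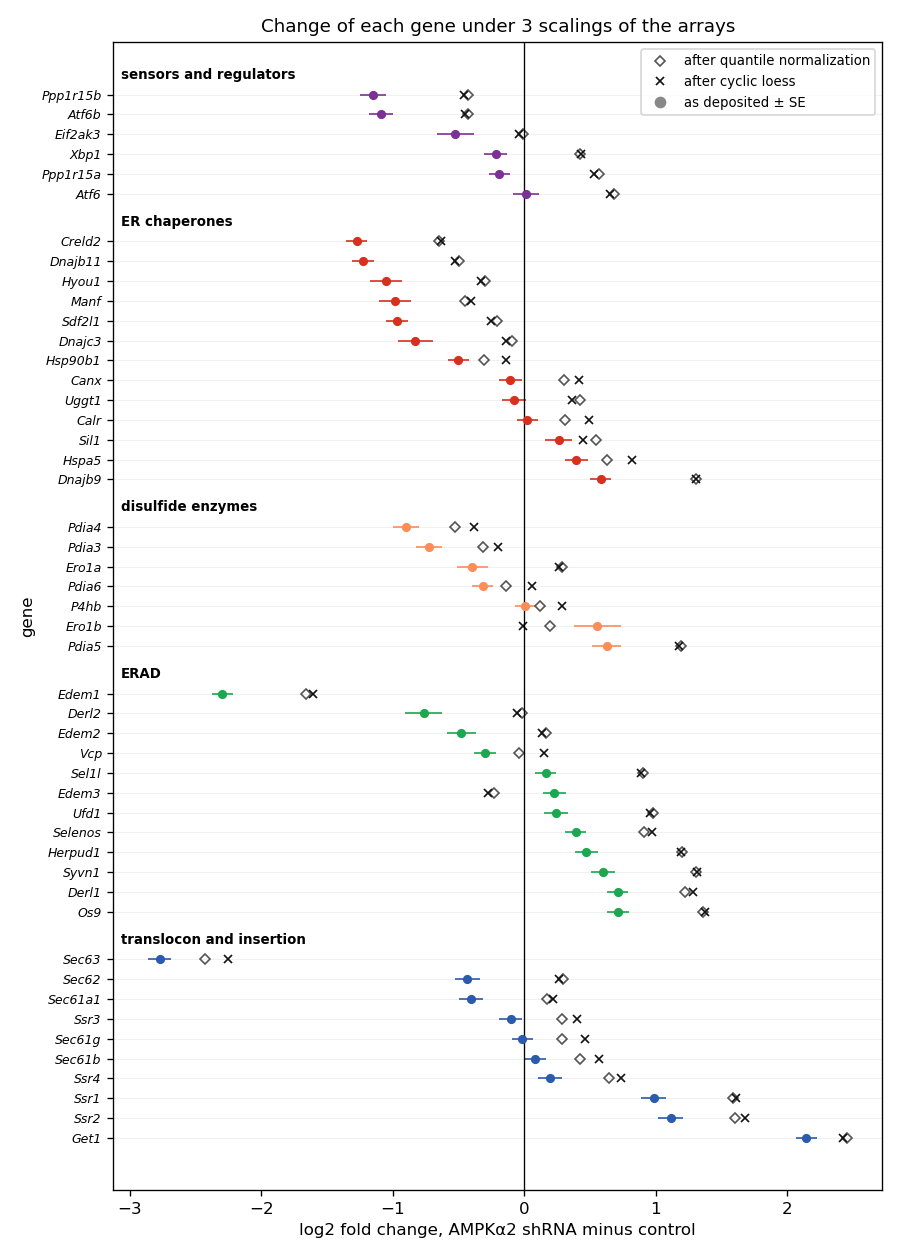
Log2 fold change (horizontal axis, AMPKα2 shRNA minus control) of each gene (vertical axis) as deposited (filled circles with limma's SE), after quantile scaling (diamonds) and after loess (crosses). Both scalings shift most genes to the right, and Sec63 and Edem1 stay far to the left while Get1, Ssr2 and Ssr1 stay to the right.

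Many genes of this response carry an ER stress response element (ERSE) in the promoter, made of CCAAT, which the factor NF-Y binds, then 9 bases of any kind, then CCACG, which ATF6 binds. The RefSeq promoter windows of build GRCr8, from 250 bases before to 50 after each annotated start, held 41 of the 50 listed genes. On both strands, 22 of 33469 windows (0.0657%) held this ERSE, and 9 of them belonged to listed genes, 8 of which were measured. The shorter element ERSE-II, made of ATTGG, 1 base of any kind and CCACG, was in 17 windows (0.0508%), 3 of them of measured genes on the list. Another motif, TGACGTGG, which XBP1 and ATF6 can bind, was in 199 windows (0.595%), of which those of Vcp and Hyou1 were on the list. It overlaps an ERSE-II match in the Hyou1 window that holds it, 1 of 2 windows of that gene. The windows of Hspa5 (chr3:38452766-38453065, + strand) and Creld2 (chr7:121789134-121789433, + strand) are shown because each holds 1 exact match to this ERSE, in capitals. The genes lay on opposite sides of 0 as deposited. Elements that depart from these letters were not searched for, so the windows may hold others in lower case. In Hspa5 the element starts 43 bases before the annotated start, and in Creld2 it starts 145 bases before it and reads on the other strand.
Hspa5: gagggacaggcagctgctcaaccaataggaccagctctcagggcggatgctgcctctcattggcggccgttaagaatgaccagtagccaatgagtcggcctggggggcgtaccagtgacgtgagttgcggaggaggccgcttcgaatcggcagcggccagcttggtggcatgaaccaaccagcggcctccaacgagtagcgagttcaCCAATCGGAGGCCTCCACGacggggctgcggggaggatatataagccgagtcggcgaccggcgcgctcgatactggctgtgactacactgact
Creld2: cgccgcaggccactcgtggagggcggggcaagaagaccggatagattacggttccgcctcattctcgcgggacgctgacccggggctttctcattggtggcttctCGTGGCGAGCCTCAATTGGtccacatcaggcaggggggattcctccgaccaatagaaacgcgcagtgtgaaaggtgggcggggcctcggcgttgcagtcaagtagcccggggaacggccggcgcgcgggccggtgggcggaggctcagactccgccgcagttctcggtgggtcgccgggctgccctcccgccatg

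Other elements are shown with 10 bases on each side and the match in capitals, since their genes are described in the following paragraphs. Those of Xbp1 (chr14:84604548-84604586, + strand), Dnajc3 (chr15:102432524-102432562, + strand) and the first of 2 in Hsp90b1 (chr7:23012441-23012479, - strand) are ERSE. Those of Dnajb11 (chr11:91672790-91672820, - strand) and Herpud1 (chr19:10614811-10614841, - strand) are ERSE-II.
Xbp1: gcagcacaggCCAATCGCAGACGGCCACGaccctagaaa
Dnajc3: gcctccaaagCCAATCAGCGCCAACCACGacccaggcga
Hsp90b1: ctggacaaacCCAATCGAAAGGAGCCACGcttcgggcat
Dnajb11: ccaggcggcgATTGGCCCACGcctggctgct
Herpud1: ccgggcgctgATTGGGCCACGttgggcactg

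The 11 measured genes with either element did not share a direction. As deposited 3 were higher (Hspa5, Ero1b and Herpud1), 6 lower (Xbp1, Hsp90b1, Dnajc3, Creld2, Dnajb11 and Hyou1), and Calr and Canx did not pass. After loess 5 were higher and 3 lower, after quantile scaling 5 and 4, and after median centring 1 and 8. Of all genes, 43.6% were higher and 41.5% lower as deposited, and 40.2% and 31.5% after loess. The shares were 43.8% and 28.9% after quantile scaling, and 35% and 48.2% after median centring. A match describes letters in the window and is neither a bound site nor a cause.

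Among the sensors and regulators, 0 of 6 were higher and 5 lower as deposited, and after both quantile scaling and loess 3 were higher and 2 lower. The shares over all genes were 43.6% higher and 41.5% lower as deposited. They were 43.8% and 28.9% after quantile scaling, and 40.2% and 31.5% after loess. Ppp1r15b, whose product guides a phosphatase to eIF2α without stress, had 9.14, 9.13 and 8.85 on the hairpin arrays, against 10.21, 10.15 and 10.21 on the control arrays. The groups lay more than 1 log2 unit apart at the nearest arrays. It fell by 1.15 (SE 0.10, limma, adjusted p = 1.02e-06), and its change was -0.42 after quantile scaling and -0.45 after loess. Its other probe set, at a control level of 5.22, had -0.25, which did not pass. Atf6b, a relative of ATF6 that is also cut from the ER membrane, had 7.67, 7.56 and 7.57 on the hairpin arrays, against 8.57, 8.67 and 8.81 on the control arrays. Every hairpin array was below every control array, and it fell by 1.09 (SE 0.09, limma, adjusted p = 9.19e-07), with -0.42 and -0.45 after quantile scaling and loess.

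The other sensors were less settled. Atf6 overlapped between the groups, at 8.12, 7.99 and 8.29 on the hairpin arrays, against 8.15, 8.02 and 8.19 on the control arrays, and its change of 0.01 did not pass. After quantile scaling and loess it rose by 0.68 and 0.65, and its other probe set, at a control level of 5.83, rose by 1.22 as deposited. Eif2ak3, which encodes PERK, had 7.29, 7.66 and 7.04 on the hairpin arrays, against 7.74, 7.90 and 7.92 on the control arrays. Its change of -0.52 passed as deposited, while -0.01 after quantile scaling and -0.04 after loess did not. Xbp1, the transcription factor whose mRNA is spliced by IRE1, had 10.06, 10.07 and 9.86 on the hairpin arrays, against 10.19, 10.20 and 10.25 on the control arrays. Its change of -0.22 (limma, adjusted p = 0.0387) turned to 0.43 after both quantile scaling and loess, and it lost its call without any one of hairpin replicate 3 or the control replicates, at -0.15 to -0.23. Ppp1r15a, which encodes the stress-induced eIF2α phosphatase subunit GADD34, behaved alike, with -0.19 (limma, adjusted p = 0.0476) as deposited, 0.57 after quantile scaling and 0.53 after loess. Leaving out any one array ended its call, at -0.16 to -0.21. Spliced and unspliced Xbp1 mRNA were not told apart here.

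Among the 13 ER chaperones, 3 were higher and 7 lower as deposited, 6 and 5 after both quantile scaling and loess, and 1 and 10 after median centring. Over all genes 43.6% were higher and 41.5% lower as deposited, and 43.8% and 28.9% after quantile scaling. Those shares were 40.2% and 31.5% after loess, and 35% and 48.2% after median centring. Hspa5, which encodes BiP, the main HSP70 chaperone of the ER, had 12.19, 12.16 and 11.97 on the hairpin arrays, against 11.70, 11.72 and 11.71 on the control arrays. The groups did not overlap, and it rose by 0.40 (SE 0.09, limma, adjusted p = 0.00144), by 0.63 after quantile scaling and by 0.82 after loess, but its change of 0.18 after median centring did not pass. Hsp90b1, which encodes GRP94, the HSP90 of the ER, had 12.13, 11.99 and 12.08 on the hairpin arrays, against 12.56, 12.58 and 12.55 on the control arrays. It fell by 0.50 (SE 0.08, limma, adjusted p = 0.000149) and had -0.30 after quantile scaling, while -0.14 after loess did not pass.

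The J-domain partners of BiP, which stimulate its ATPase, parted. Dnajb9, which encodes ERdj4, had 9.52, 9.38 and 9.40 on the hairpin arrays, against 8.86, 8.85 and 8.84 on the control arrays, and it rose by 0.58 (SE 0.08, limma, adjusted p = 4.56e-05). It rose in each scaling, by 1.30 after quantile scaling, 1.31 after loess and 0.37 after median centring. Dnajb11, which encodes ERdj3, had 8.90, 8.98 and 8.93 on the hairpin arrays, against 10.08, 10.15 and 10.27 on the control arrays. It fell by 1.23 (SE 0.08, limma, adjusted p = 2.41e-07) and in each scaling, with -0.49 after quantile scaling and -0.53 after loess. The change of Dnajb9 exceeded that of Dnajb11 by 1.81 as deposited, 1.80 after quantile scaling and 1.83 after loess. Gaps to BiP itself moved more: the change of Hspa5 exceeded that of Dnajb11 by 1.62 as deposited, 1.13 after quantile scaling and 1.35 after loess. It exceeded that of Hyou1, an exchange factor of BiP, by 1.44, 0.93 and 1.15, and that of Hsp90b1 by 0.89, 0.94 and 0.96 in the same order. Dnajc3, which encodes P58IPK, had a change of -0.83, but -0.10 after quantile scaling and -0.13 after loess did not pass. On hairpin replicate 3 it stood at 8.90, below the 9.34 and 9.48 of the other two.

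The chaperone genes with the largest falls were Creld2 and Dnajb11, followed by Hyou1, Manf and Sdf2l1. Creld2, which encodes a stress-induced ER protein, had 9.63, 9.49 and 9.45 on the hairpin arrays, against 10.80, 10.80 and 10.78 on the control arrays. It fell by 1.27 (SE 0.08, limma, adjusted p = 1.68e-07), with -0.65 after quantile scaling and -0.63 after loess. Manf, which encodes a secreted ER stress protein, had 10.21, 10.53 and 10.00 on the hairpin arrays, against 11.20, 11.26 and 11.23 on the control arrays. It fell by 0.98 (SE 0.12), with -0.45 and -0.40 after quantile scaling and loess. For both genes the hairpin arrays lay below all control arrays. Hyou1, which encodes GRP170, a nucleotide exchange factor of BiP, had 8.56, 8.47 and 8.06 on the hairpin arrays, against 9.47, 9.38 and 9.39 on the control arrays. It fell by 1.05 (SE 0.12), with -0.30 and -0.33 after quantile scaling and loess, and its other probe set fell by 0.59. Sil1, the gene of the other exchange factor of BiP, rose by 0.26 (limma, adjusted p = 0.0299), and by 0.55 and 0.45 after quantile scaling and loess, while 0.05 after median centring did not pass. Without hairpin replicate 1 or 2, or control replicate 1 or 2, the rise of Sil1 did not pass, at 0.17 to 0.27. Sdf2l1, whose product binds ERdj3, fell by 0.97, while -0.21 after quantile scaling did not pass and -0.25 after loess did.

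Neither the genes of the lectin chaperones, which hold glycoproteins while they fold, nor Uggt1 passed as deposited. Calr (calreticulin) had 11.72, 11.58 and 11.56 on the hairpin arrays, against 11.61, 11.60 and 11.58 on the control arrays, a change of 0.02, and the groups overlapped. Canx (calnexin) had a change of -0.11 and Uggt1, which re-glucosylates misfolded glycoproteins, -0.08. All these genes were higher after both quantile scaling (0.31, 0.31 and 0.43 for Calr, Canx and Uggt1) and loess (0.49, 0.42 and 0.37), and lower after median centring (-0.19, -0.32 and -0.29). The other probe sets of Canx passed in opposite directions, at -1.46 and 0.30, although their control levels of 11.35 and 10.16 were both high.

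**Figure D3:**
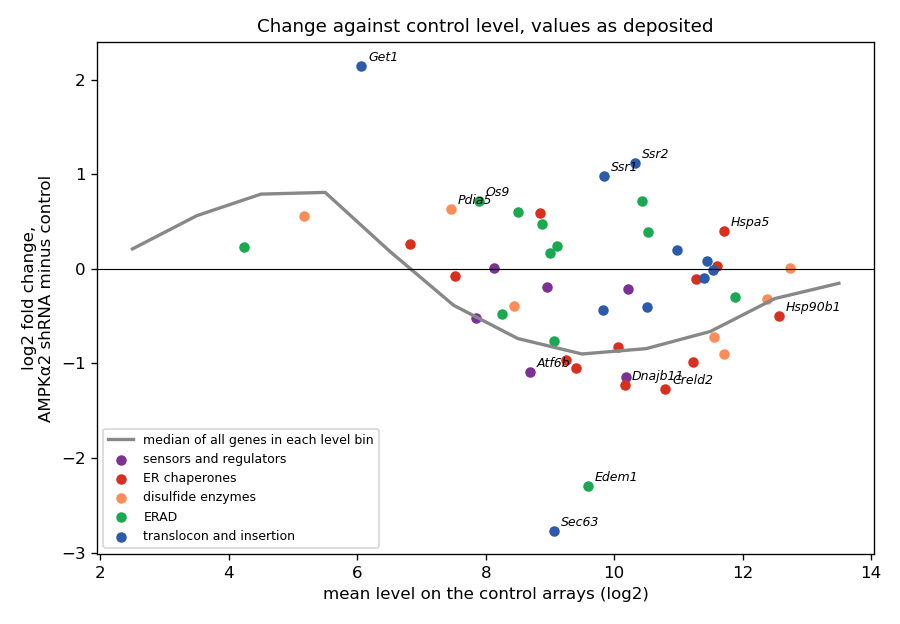
Log2 fold change (vertical axis, AMPKα2 shRNA minus control, as deposited) against the mean level on the control arrays (horizontal axis, log2) for the 48 genes, coloured by class, with the median of all genes in each level bin of 1 log2 unit (grey line). Get1 lies above the line at its level, Ssr1 and Ssr2 lie above 0 where the median of all genes is about -0.90 to -0.84, and Edem1 and Sec63 lie far below.

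Among the 7 disulfide enzymes, 2 were higher and 4 lower as deposited, 2 and 2 after quantile scaling, and 3 and 2 after loess. The shares over all genes were 43.6% and 41.5% as deposited, 43.8% and 28.9% with quantile scaling, and 40.2% and 31.5% after loess. Pdia4, which encodes ERp72, had 10.88, 10.94 and 10.61 on the hairpin arrays, against 11.72, 11.70 and 11.69 on the control arrays. It fell by 0.90 (SE 0.10, limma, adjusted p = 8.09e-06), with -0.53 and -0.38 after quantile scaling and loess. Pdia3, which encodes ERp57, the partner of calnexin and calreticulin, had 10.86, 10.97 and 10.64 on the hairpin arrays, against 11.50, 11.56 and 11.58 on the control arrays. It fell by 0.73, with -0.31 and -0.20 in those scalings, and its other probe set fell by 1.24. Pdia5 went the other way, with 7.84, 8.23 and 8.18 on the hairpin arrays, against 7.41, 7.48 and 7.48 on the control arrays. It rose by 0.63 (SE 0.11, limma, adjusted p = 0.000244), and by 1.19 and 1.17 after quantile scaling and loess. Its change exceeded that of Pdia4 by 1.53 as deposited, 1.72 after quantile scaling and 1.56 after loess.

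The founding isomerase gene P4hb lay near the top of the scale, with 12.74, 12.75 and 12.77 on the hairpin arrays, against 12.74, 12.74 and 12.76 on the control arrays. The groups overlapped, and its change of 0.01 (SE 0.08) did not pass, nor did 0.12 after quantile scaling, while it was 0.29 after loess and -0.21 after median centring, both of which passed. Pdia6 had -0.32 as deposited, and neither -0.14 after quantile scaling nor 0.06 after loess passed. Ero1a, an oxidase that recharges the isomerases, had -0.39 as deposited and turned to 0.29 and 0.27 after quantile scaling and loess. Its relative Ero1b had 6.21, 5.53 and 5.42 on the hairpin arrays, against 5.33, 5.10 and 5.07 on the control arrays. The first hairpin array stood apart there. The change of Ero1b, 0.56, passed as deposited, but 0.20 after quantile scaling and -0.01 after loess did not.

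Of the 12 ERAD genes, 4 rose and 1 fell in all 4 scalings, beside 3 and 1 of the 10 translocon genes, and 25.5% and 26.4% of all genes. Of 22 other measured ERAD genes, 1 rose and 8 fell in all 4. As deposited 7 of 12 were higher and 4 lower, after both quantile scaling and loess 7 and 2, and after median centring 4 and 4. Over all genes 43.6% were higher and 41.5% lower as deposited, and 40.2% and 31.5% after loess. After quantile scaling those shares were 43.8% and 28.9%, and after median centring 35% and 48.2%. Syvn1, which encodes the ubiquitin ligase HRD1, had 9.26, 9.09 and 8.98 on the hairpin arrays, against 8.49, 8.53 and 8.51 on the control arrays. It rose by 0.60 (SE 0.09, limma, adjusted p = 9.59e-05), and by 1.31, 1.32 and 0.38 after quantile scaling, loess and median centring. Its adaptor gene Sel1l had 9.15, 9.22 and 9.12 on the hairpin arrays, against 9.02, 8.97 and 9.01 on the control arrays. The groups did not overlap, but the change of 0.16 (SE 0.08, limma, adjusted p = 0.0727) did not pass, whereas 0.91 after quantile scaling and 0.89 after loess did. Without hairpin replicate 3 the 0.18 of Sel1l passed (limma, adjusted p = 0.0306). Herpud1, a stress-induced part of the same ligase complex, had 9.33, 9.48 and 9.23 on the hairpin arrays, against 8.89, 8.86 and 8.87 on the control arrays. It rose by 0.47 (SE 0.09, limma, adjusted p = 0.000454), and by 1.20 in both scalings of the distributions.

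Os9, a lectin that delivers misfolded glycoproteins to HRD1, had 8.65, 8.68 and 8.50 on the hairpin arrays, against 7.94, 7.87 and 7.87 on the control arrays. It rose by 0.72 (SE 0.08, limma, adjusted p = 1.32e-05), and by 1.36 and 1.38 after quantile scaling and loess, although its other probe set, at a control level of 6.17, had -0.34. Derl1, a derlin of the retrotranslocation channel, had 11.22, 11.11 and 11.11 on the hairpin arrays, against 10.42, 10.47 and 10.41 on the control arrays, and it rose by 0.71 (SE 0.08), and by 1.23 and 1.28 in those scalings. That rise rests on 1 of its 3 probe sets: the others, with control levels of 10.41 and 10.12, had -0.01 and -0.43, and their mean over the 3, 0.09, did not pass. Derl2 went the other way on both its probe sets, by -0.76 and -0.96, but the first was -0.02 after quantile scaling and -0.05 after loess, neither of which passed. Selenos, which recruits the ATPase VCP to derlins, rose by 0.39, and by 0.91 and 0.97 after quantile scaling and loess, while 0.17 after median centring did not pass. Vcp itself had -0.30 as deposited, and -0.04 and 0.15 in those scalings did not pass. Ufd1, the gene of a VCP cofactor, had 0.24 on the probe set used and -0.63 on its other one, and the first lost its call without hairpin replicate 2 or control replicates 1 or 3, at 0.18 to 0.26.

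The EDEM genes, whose products trim mannose from glycoproteins bound for ERAD, did not move together. Edem1 had 7.37, 7.24 and 7.27 on the hairpin arrays, against 9.58, 9.60 and 9.59 on the control arrays. The groups were about 2 log2 units apart with little spread, and it fell by 2.30 (SE 0.08, limma, adjusted p = 3.54e-09), with -1.66 after quantile scaling and -1.61 after loess. Its other probe sets, at control levels of 7.91 and 8.26, had -1.35 and -0.54, which passed. Edem2 had -0.48 as deposited, and 0.16 and 0.14 after quantile scaling and loess did not pass. Edem3, at a low control level of 4.23, had 0.23 as deposited and turned to -0.23 and -0.28 in those scalings. Without hairpin replicate 1 or 2, or control replicate 3, the change of Edem3 did not pass, at 0.15 to 0.23. The change of Syvn1 exceeded that of Edem1 by 2.90 as deposited, 2.97 after quantile scaling and 2.93 after loess, and that of Sel1l exceeded it by 2.46, 2.57 and 2.49.

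**Figure D4:**
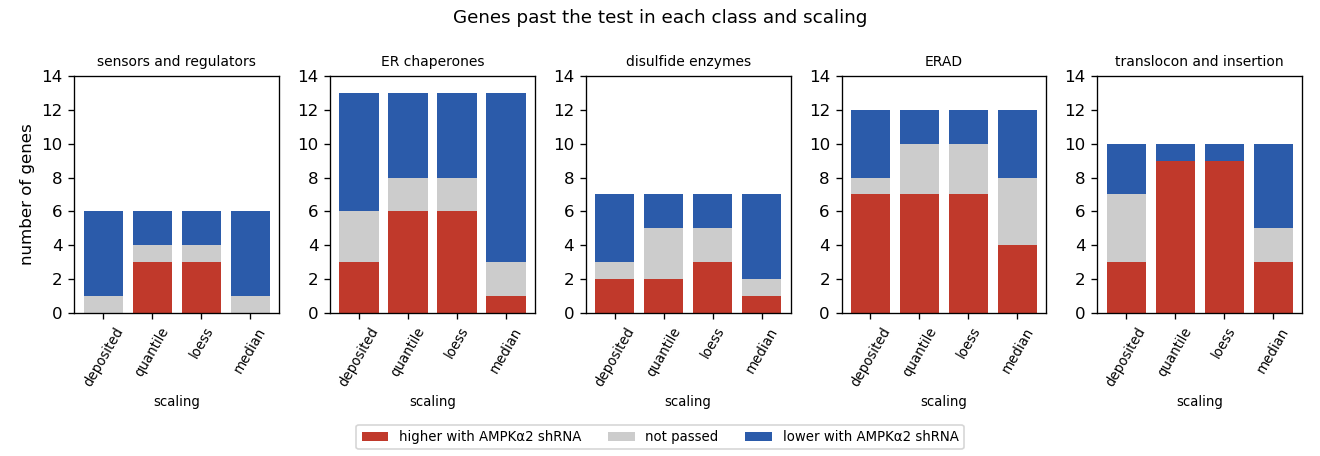
Number of genes (vertical axis) in each class that were higher with the AMPKα2 hairpin (red), did not pass (grey) or were lower (blue) with limma at an adjusted p of 0.05, for the values as deposited and after quantile scaling, loess and median centring (horizontal axis). ERAD had 7 genes higher as deposited and 7 after quantile scaling or loess, where Sel1l is counted in place of Edem3, while the translocon class had 3 higher as deposited and 9 after quantile scaling or loess.

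The translocon class held both extremes of the list. As deposited 3 of 10 were higher and 3 lower, after both quantile scaling and loess 9 were higher and 1 lower, and after median centring 3 were higher and 5 lower. The shares over all genes were 43.6% and 41.5% as deposited, and 43.8% and 28.9% after quantile scaling. After loess they were 40.2% and 31.5%, and after median centring 35% and 48.2%. Get1, which encodes a receptor subunit for tail-anchored membrane proteins, had 8.14, 8.30 and 8.19 on the hairpin arrays, against 6.02, 6.08 and 6.09 on the control arrays. It rose by 2.15 (SE 0.08, limma, adjusted p = 5.55e-09), by 2.46 after quantile scaling, 2.43 after loess and 1.93 after median centring. Its other probe set, at a control level of 5.10, rose by 3.43. Sec63, which encodes a J-domain protein that joins BiP to the Sec61 channel, had 6.250, 6.412 and 6.212 on the hairpin arrays, against 9.087, 8.996 and 9.102 on the control arrays. It fell by 2.77 (SE 0.09, limma, adjusted p = 2.22e-09), with -2.43 after quantile scaling and -2.25 after loess. The other probe sets of Sec63 gave smaller changes, -0.66 and -0.43, which passed, and 0.00, which did not, and the mean over its 4 probe sets was -0.96.

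The genes of the TRAP complex, which assists Sec61 with some substrates, also split. Ssr2 had 11.52, 11.52 and 11.27 on the hairpin arrays, against 10.35, 10.27 and 10.35 on the control arrays, and it rose by 1.11 (SE 0.09, limma, adjusted p = 1.03e-06). Ssr1 had 10.89, 10.94 and 10.65 on the hairpin arrays, against 9.83, 9.88 and 9.82 on the control arrays, and it rose by 0.98 (SE 0.09, limma, adjusted p = 2.91e-06). For both, every hairpin array was above every control array, and the rises were 1.59 and 1.61 for Ssr1 and 1.61 and 1.68 for Ssr2 after quantile scaling and loess. The other probe set of Ssr1 had a control level of 10.46 and a change of -0.44, and both Ssr1 probe sets together averaged 0.27. Ssr3 and Ssr4 had -0.10 and 0.20 as deposited, which did not pass. After quantile scaling they rose by 0.29 and 0.65 and after loess by 0.40 and 0.73, and after median centring -0.32, which passed, and -0.02, which did not. The change of Ssr2 exceeded that of Ssr3 by 1.22 as deposited, 1.32 after quantile scaling and 1.27 after loess. Without hairpin replicate 3 the 0.27 of Ssr4 passed (limma, adjusted p = 0.00605).

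Of the genes of the Sec61 channel itself, Sec61b and Sec61g moved little as deposited. Sec61b had 11.54, 11.59 and 11.45 on the hairpin arrays, against 11.47, 11.44 and 11.42 on the control arrays, a change of 0.09. Sec61g had a change of -0.01. Neither passed, and both were higher after quantile scaling (0.43 and 0.29) and loess (0.57 and 0.47). Sec61a1, the pore subunit, had -0.40 as deposited, which passed, and turned to 0.17 and 0.22 after quantile scaling and loess. Its other probe sets had 0.24 and 1.13, which also passed. Sec62, the partner of Sec63, had -0.43 as deposited, turned to 0.30 and 0.26 in those scalings, and had -0.83 on its other probe set. The change of Sec62 exceeded that of Sec63 by 2.34 as deposited, 2.73 after quantile scaling and 2.52 after loess.

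**Figure D5:**
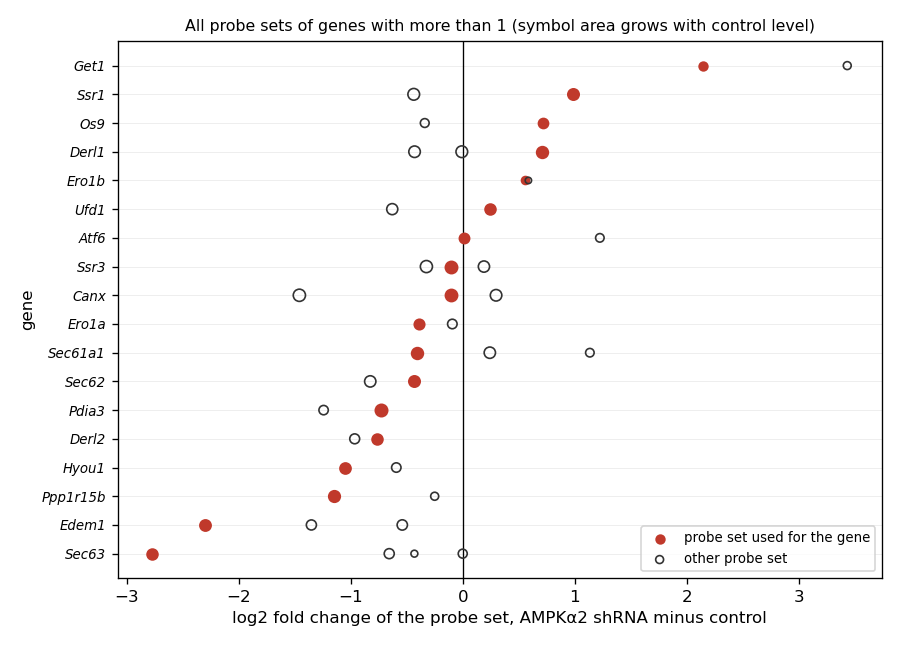
Log2 fold change as deposited (horizontal axis, AMPKα2 shRNA minus control) of every probe set of the 18 genes with more than 1 (vertical axis), with the probe set used for the gene filled, the others open, and symbol area growing with the control level. Get1, Edem1, Pdia3, Hyou1, Sec62, Derl2 and Ero1b have all probe sets past the test on 1 side of 0. Canx, Sec61a1, Derl1, Ssr1, Os9 and Ufd1 have probe sets past the test on both sides.

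Probe sets of 1 gene often differed. Of the 18 genes with more than 1, 7 had all probe sets past the test in 1 direction (Get1, Edem1, Pdia3, Hyou1, Sec62, Derl2 and Ero1b), 6 had probe sets past the test on both sides of 0 (Canx, Sec61a1, Derl1, Ssr1, Os9 and Ufd1), and 5 had neither. Where a result is named for one of the 6, it is that of the probe set with the highest mean.

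The hairpin arrays also varied more among themselves. The median SD of the 48 genes was 0.12 on the hairpin arrays, against 0.03 on the control arrays, and that of all genes was 0.13 and 0.07 in the same order. Hairpin replicate 3 was the lowest of its group in 33 of the 48 genes (68.8%, against 46.8% of all genes), and after loess in 22 (45.8%, against 32.2%). Without that array 17 genes were higher and 21 lower, against 15 and 23 with it. Over all genes 6248 were higher and 5776 lower without it, against 6199 and 5896 with it.

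Other genes of the pathway were read from lists by function, 89 measured genes in all, of which 19 were higher (21.3%, against 43.6% of all genes) and 46 lower (51.7%, against 41.5%) as deposited, with a median of -0.27. After loess 47 were higher (52.8%, against 40.2%) and 23 lower (25.8%, against 31.5%), with a median of 0.28. In all 4 scalings 12 were higher (13.5%, against 25.5%) and 20 lower (22.5%, against 26.4%). The ATF4 and CHOP branch, which follows PERK, had 1 of 6 genes higher and 2 lower as deposited, with a median of -0.05. After both quantile scaling and loess 3 were higher and 1 lower, with medians of 0.32 and 0.35. After quantile scaling 43.8% of all genes were higher and 28.9% lower. Trib3, a pseudokinase gene induced by ATF4 and CHOP, had 7.49 on the hairpin arrays, against 8.71 on the control arrays. It fell by 1.22 (SE 0.09), with -0.57 and -0.58 after quantile scaling and loess. Ddit3, which encodes CHOP, had -0.72 as deposited, while 0.04 and 0.00 in those scalings did not pass. Chac1, a glutathione-degrading target of ATF4, went the other way and rose by 0.85 (SE 0.08), and by 1.55 and 1.58 in those scalings. This branch thus held genes with both directions.

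Of the ER membrane transcription factors and the proteases that release them, 4 of 6 genes were higher and 2 lower as deposited, against 43.6% and 41.5% of all genes. After both quantile scaling and loess 3 were higher and 1 lower. The shares over all genes were then 43.8% and 28.9% (quantile scaling) and 40.2% and 31.5% (loess). The proteases that cut ATF6 were both lower as deposited: Mbtps2 fell by 1.13 (SE 0.13), with -0.65 and -0.66 after quantile scaling and loess, and Mbtps1 had -0.74 but 0.01 and -0.02 in those scalings, which did not pass. Creb3l3 and Creb3, which encode factors of the same kind, rose by 1.22 and 0.87, and by 1.19 and 1.52 after loess.

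For the lists that follow, the shares over all genes were 43.6% higher and 41.5% lower as deposited, and 40.2% and 31.5% after loess. Of 24 other foldases and KDEL receptors, 4 were higher and 13 lower as deposited, and 13 and 4 after loess. Tmx3, a membrane-bound disulfide isomerase gene, fell by 1.73 (SE 0.10), with -1.01 after loess. Fkbp2, of the same list, fell by 1.45 (SE 0.08), with -0.75 after loess and -0.60 over the mean of its 3 probe sets as deposited. Fkbp14, a prolyl isomerase gene, rose by 1.27 (SE 0.10) and by 1.99 after loess. Qsox1, which encodes a sulfhydryl oxidase, rose by 1.24 (SE 0.09) and by 1.05 after loess, with 1.10 over the mean of its 2 probe sets as deposited. Of 22 other ERAD genes, 5 were higher and 14 lower as deposited, and 11 and 8 after loess. Ube4b, which encodes an enzyme that extends ubiquitin chains, fell by 1.80 (SE 0.12), with -1.11 after loess. Over the mean of its 2 probe sets the change of Ube4b as deposited was -1.10. Ngly1, which encodes the enzyme that strips N-glycans from ERAD substrates, fell by 1.61 (SE 0.09), with -1.45 after loess. Erlec1, which encodes a lectin related to OS-9, rose by 0.93 (SE 0.09), and by 1.64 after loess, with 0.61 over the mean of its 2 probe sets as deposited.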

How the data were processed

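The labels' protocols name Trizol for the extraction of RNA and an Affymetrix one-cycle kit for the biotin-labelled cRNA. The authors deposited log2 values, 1 per probe set and array; their background correction, probe summary and normalization are not given in the sources used here. Signal over background and scan batches were not analysed here, and precision is limited by the small number of arrays.

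The table held 31099 probe sets, from which 57 array controls were dropped. Among 31042 others the platform annotation gave 20826 a single gene, 436 more than one, and 9780 no gene. RefSeq names (GRCr8) matched 20758 by Entrez identifier and changed 0 symbols. The 14217 genes were fitted in one model with limma 3.58.1 (R 4.3.3; functions lmFit and eBayes, both sides tested, no covariate, no filter on level). p-values were adjusted by Benjamini-Hochberg across the 14217 genes, at a threshold of 0.05, and measure the spread between these arrays. With 3 arrays against 3, an exact permutation test cannot give a 2-sided p under 0.1. Probe sets were compared in a fit of the same form over all 31042.

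Members, classes and lists were chosen with earlier results of these data known, so no set test was made. Every measured member is named. Of other lists at most 2 rising and 2 falling genes are named, taken by size of change from those past the threshold. Gaps between partner genes were chosen after the values were seen and have no test. Alternatives were quantile normalization (quantile scaling), cyclic loess in 3 iterations (loess), median centring, removal of the lowest 25% of genes, other probe set rules, an intensity trend, array weights, a block for replicate number, a floor of 4 and leaving out each array. Promoter windows are from RefSeq.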

Additional observations from a re-analysis of the deposited data

How the results depend on the processing

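Of the counts over all 48 genes, the scalings moved the rises from 15 to 27 (quantile scaling), 28 (loess) and 9 (median centring), and the falls from 23 to 12 after quantile scaling and 12 after loess. The median change moved to 0.29, 0.33 and -0.32 in those scalings and to -0.20 with the most variable probe set. By class, quantile scaling and loess each gave 3 sensors higher and 2 lower, 6 chaperones higher, 2 disulfide enzymes lower, 2 ERAD genes lower, and 9 translocon genes higher and 1 lower. Median centring gave 1 chaperone, 1 disulfide enzyme and 4 ERAD genes higher and 5 translocon genes lower. The mean of probe sets gave 1 sensor and 5 translocon genes higher, the most variable probe set gave 1 sensor higher, array weights gave 3 sensors lower, and the floor of 4 gave 1 disulfide enzyme higher. Over all genes, 43.6% were higher and 41.5% lower as deposited, and 43.8% and 28.9% after quantile scaling. These shares were 40.2% and 31.5% after loess, and 35% and 48.2% after median centring. Of 14217 genes, 6371 were higher with the mean of probe sets and 6560 with the most variable probe set. Array weights gave 5847 of them lower, and the floor of 4 gave 5415 higher. Without the lowest 25% of genes, where fewer genes were tested, 3317 were higher. Leaving out 1 array gave 12 to 17 genes higher and 21 to 22 lower. By class it gave 3 to 4 sensors lower, 2 to 3 chaperones higher, 5 to 8 ERAD genes higher and 3 to 4 translocon genes higher. Over all 14217 genes it gave 5905 to 6248 higher and 5641 to 5910 lower.

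The genes given next changed sign and passed as deposited, under the alternative or in both. After quantile scaling they were Xbp1 (0.43), Ppp1r15a (0.57), Canx (0.31), Uggt1 (0.43), Ero1a (0.29), Edem2 (0.16), Edem3 (-0.23), Sec61a1 (0.17), Sec61g (0.29), Sec62 (0.30) and Ssr3 (0.29). After loess they were Xbp1 (0.43), Ppp1r15a (0.53), Canx (0.42), Uggt1 (0.37), Pdia6 (0.058), Ero1a (0.27), Ero1b (-0.0064), Edem2 (0.14), Edem3 (-0.28), Vcp (0.15), Sec61a1 (0.22), Sec61g (0.47), Sec62 (0.26) and Ssr3 (0.40). After median centring they were Calr (-0.19) and P4hb (-0.21), while Atf6 (-0.20), Sel1l (-0.05), Sec61b (-0.13) and Ssr4 (-0.02) changed sign without passing in either. With the mean of probe sets they were Ufd1 (-0.19) and Sec61a1 (0.32), and with the most variable probe set Ufd1 (-0.63) and Sec61a1 (1.13). The cause of these turns was not tested.

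The replicate block gave 15 genes higher and 21 lower, with 3 sensors lower in place of 5, since Xbp1 and Ppp1r15a no longer passed. Over all genes the block gave 6173 higher and 5866 lower, against 6199 and 5896 without it. Deviations of arrays with the same replicate number correlated at -0.02, 0.01 and -0.10 over genes. Those of arrays with different numbers ran from -0.09 to 0.10. As both are weak, this check cannot tell whether cultures with the same number were prepared together. Array weights, the intensity trend, the floor of 4, the block, removal of the lowest 25% of genes (which left Edem3 untested) and leaving out any 1 array turned the direction of no gene that passed. Without signal over background for each probe set, levels near the bottom of the range, as of Edem3 and Ero1b, are uncertain.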

Other observations

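Genes of protein entry into the ER beyond the Sec61 channel were read as further lists. For these lists and those of the next paragraph, the shares over all genes were 43.6% higher and 41.5% lower as deposited. After loess they were 40.2% and 31.5%. Of 13 genes of the signal recognition particle and the signal peptidase, 4 were higher and 4 lower as deposited, with a median of -0.07, and 9 were higher and 2 lower after loess. Spcs3, a signal peptidase subunit gene, had 10.31 on the hairpin arrays, against 11.86 on the control arrays, and it fell by 1.55 (SE 0.09, limma, adjusted p = 6.01e-08), with -1.01 after loess. Sec11c, a catalytic subunit gene of the same enzyme, had 11.70 on the hairpin arrays, against 10.69 on the control arrays, and it rose by 1.01 (SE 0.09, limma, adjusted p = 1.18e-06), and by 1.54 after loess. Srprb, which encodes the β subunit of the signal recognition particle receptor, rose by 0.78 (SE 0.08) and by 1.44 after loess, with 0.47 over the mean of its 3 probe sets. Both changes of the signal peptidase genes passed in each of the 4 scalings.

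Of 12 genes of the oligosaccharyltransferase, which attaches N-glycans, and of the glucosidases that trim them, 1 was higher and 7 lower as deposited, with a median of -0.67, and 5 were higher and 6 lower after loess. The subunits of glucosidase II parted: Ganab, the catalytic subunit gene, fell by 1.17 (SE 0.08), with -0.55 after loess, while Prkcsh, the gene of its partner, rose by 0.42 (SE 0.09) and by 1.01 after loess. The change of Prkcsh after median centring, 0.21, did not pass. Of 6 genes of tail-anchored protein insertion, the route in which Get1 acts, 0 were higher and 4 lower as deposited, and 3 were higher and 1 lower after loess. Camlg, which encodes the other subunit of the Get1 receptor, had 8.26 on the hairpin arrays, against 9.19 on the control arrays, and it fell by 0.93 (SE 0.08), with -0.22 after loess.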
